A study of Mus musculus with 32 samples.

Results

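β cells are the insulin-secreting cells of the pancreatic islet, where they lie among capillary endothelial cells (ECs) and resident macrophages (MΦs). They sense glucose through its uptake and metabolism, and the ATP that results closes potassium channels, opens calcium channels, and releases granules in which proinsulin has been cut to insulin and packed with zinc and granins. They are also known for keeping silent a few genes that most other cells use, among them those for lactate production and export. β cells from untreated (No Dox) mice were compared here with ECs and with MΦs sorted from islets of mice of the same kind and condition, each cell type as its own group, to find the genes higher or lower in β cells than in both. These groups are 12 of the 32 samples of the series analysed here, with n = 4 per cell type.

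All 12 samples came from adult mice that carried RIP-rtTA, TetO-VEGF-A, and MIP-GFP. In RIP-rtTA the rat insulin 2 promoter drives, in β cells, an activator that needs doxycycline (Dox), TetO-VEGF-A is the human VEGF-A gene that this activator would switch on, and MIP-GFP is a green fluorescent protein under the mouse insulin 1 promoter. No mouse of these 3 groups received Dox, but all 3 carried the transgenes, so no group without them was compared. Islets of several mice were pooled for each sample and dispersed, and live cells were sorted by flow cytometry: β cells by GFP in the absence of the EC surface protein CD31 and the myeloid surface protein CD11b, ECs by CD31, and MΦs by CD11b. The values are scores, the authors' normalized expression of each gene as a whole number with 1 for no signal. The RNA was amplified before sequencing and reads cannot be counted back from scores, so the depth behind each value is unknown and no detection limit is given. Of 22850 genes in the table, 16380 had a mean score of at least 20 in at least 1 group and were tested on log2(score + 1) with limma. A call needed a difference of at least 2-fold with an adjusted p (Benjamini-Hochberg) below 0.05. A gene counted as higher or lower than both when its contrasts against ECs and against MΦs were called in the same direction. Differences below are between group means of log2(score + 1), given with their standard error (SE). The study describes the samples of a group as biological replicates, each from the pooled islets of several mice, so the p-values measure the spread between such pools and not between single mice. A fitted difference from a group near a score of 1 depends on the 1 added before taking logs and is no bound, and no fold is given against a group at 1 in all its libraries.

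The β cell libraries were not alike, and this bears on the results. *Ins1* and *Ins2*, the mouse insulin genes, marked the β cells in all 4 libraries, but the summed score of 5 β cell secretory products (these and *Iapp*, *Ucn3*, and *Npy*) was 21.9 and 15.7% of the library in replicates 1 and 2 and 3.25 and 1.42% in replicates 3 and 4. A list of 49 acinar genes, mostly digestive enzymes of the exocrine pancreas, took 3.24 and 0.188% of replicates 1 and 2 and 42.0 and 34.4% of replicates 3 and 4. A list of 17 stromal and pericyte genes summed to scores of 1429 and 1269 in replicates 1 and 2, below all ECs and MΦs (3425 to 16998), but to 173597 and 589753 in replicates 3 and 4, above all of them. The 8 Schwann cell markers summed to 1194 and 1154 against 5680 and 17285. Lists of 16 endothelial and 18 macrophage markers stayed far below their own cell type in every β cell library, with sums of 2496 to 13672 against 854093 to 898564 in ECs, and of 819 to 8228 against 451176 to 588781 in MΦs. Within β cells these sums too were higher in replicates 3 and 4. They were 8624 and 13672 against 3276 and 2496 for endothelial markers, and 4768 and 8228 against 1595 and 819 for macrophage markers. *Cdh5*, the cadherin of endothelial junctions, scored 72, 59, 291, and 91 in β cells, 32793, 39050, 42281, and 39169 in ECs, and 57, 77, 2, and 4 in MΦs. *Emr1*, which encodes the macrophage marker F4/80, scored 28, 9, 5, and 180 in β cells, 6, 5, 2, and 1 in ECs, and 34058, 26696, 36870, and 26208 in MΦs. Acinar RNA also reached 8.25% of EC replicate 2 and 37.5 and 8.72% of MΦ replicates 2 and 4, against at most 0.523% of the other ECs and MΦs, and the 5 secretory products took 0.0838% of MΦ replicate 2 against 0.00567 to 0.0191% of the other MΦs. Spearman correlations over the genes tested were 0.973 between β cell replicates 1 and 2, 0.941 between replicates 3 and 4, and 0.740 to 0.870 across these pairs, whereas those among ECs were 0.985 to 0.992 and those among MΦs 0.927 to 0.974. Results are given with all 4 β cell libraries and, where it matters, with replicates 1 and 2 only. These replicates stand apart by marker sums in these same data, so fits with them alone describe those 2 libraries. Such fits are no separate test, and their p-values leave out the spread across all 4 β cell libraries. In sorted bulk RNA, fewer cells of a type and less RNA per cell cannot be told apart.

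**Figure D1:**
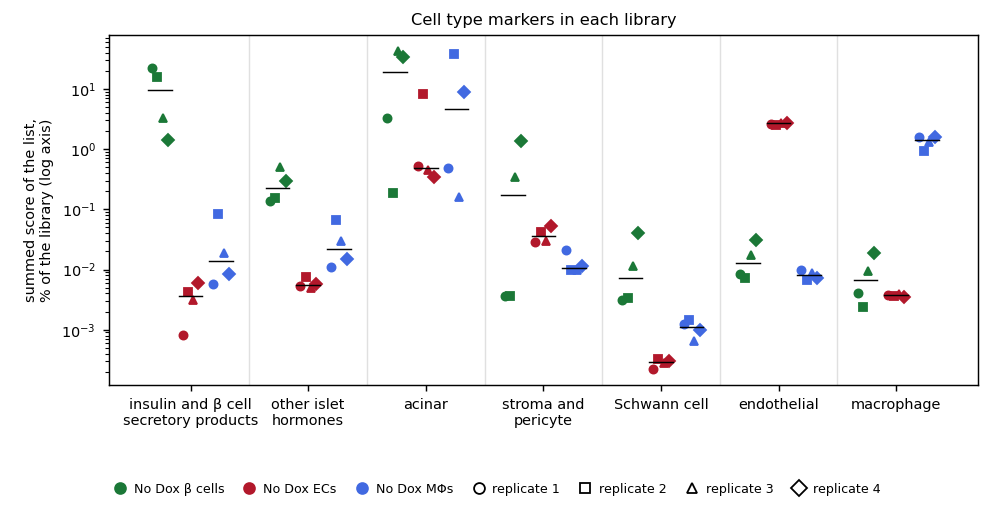
Summed score of 7 marker lists as a percentage of each library (log axis) for the 4 β cell, 4 EC, and 4 MΦ libraries at No Dox, with the marker shape for the replicate and the median as a line. β cell replicates 1 and 2 are high in secretory products and low in stromal genes, while acinar genes take 42.0 and 34.4% of replicates 3 and 4.

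With all 4 β cell libraries, 2273 genes were higher in β cells than in both ECs and MΦs, 13.9% of the genes tested, and 1147 were lower than in both, 7.00%. The acinar list is set aside from these counts, and only 1 of its 48 members tested, the acinar transcription factor gene *Bhlha15*, was called higher than both. The median differences of this list were 3.13 from ECs and 1.43 from MΦs, and 0.20 and -1.51 with β cell replicates 1 and 2 only. Its share varied widely between the β cell libraries, so few calls do not mean like levels. Against ECs alone, 3465 genes (21.2%) were higher and 2704 (16.5%) lower, and against MΦs alone, 3852 (23.5%) were higher and 3220 (19.7%) lower. A further 655 genes were higher than one cell type and lower than the other, 324 of them above ECs and below MΦs and 331 the other way. Of the genes called the same way against both, 66.5% were higher, a share that was 55.3% with β cell replicates 1 and 2 only, 73.4% with replicates 3 and 4 only (2313 higher and 838 lower), 74.5% with a fold change of 4, and 52.6% after quantile normalization. Quantile normalization moved the medians over all genes to -0.16 and -0.05. The median difference over all genes tested was 0.07 against ECs and 0.12 against MΦs, and the counts of each gene list with all 4 libraries stand against these shares of 13.9% higher and 7.00% lower than both. The β cell group was the most variable, with a median SD of log2(score + 1) of 0.578 against 0.204 in ECs and 0.424 in MΦs. Within replicates 1 and 2 it was 0.25.

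The count of genes lower in β cells moved more with the choice of β cell library than the count of genes higher. With replicates 1 and 2 as the only β cell libraries, 2597 of 16156 genes (16.1%) were higher than both and 2103 (13.0%) were lower than both. Of the 2273 genes higher with all 4 libraries, 2047 were among these, as were 1087 of the 1147 lower ones, and 0 of either were called in the opposite direction. Another 1016 genes were called lower with replicates 1 and 2 only and not with all 4. Both fits use β cell replicates 1 and 2 and the same ECs and MΦs, so much of this overlap is built in. With replicates 3 and 4 as the only β cell libraries, 2313 genes were higher than both and 838 lower. Of these, 1440 and 692 were also called so with replicates 1 and 2 only. Without EC replicate 2 and MΦ replicate 2, the libraries of those groups richest in acinar RNA, 2190 genes were higher and 991 lower. The calls were also made in β cells, ECs, and MΦs taken 1 week after Dox withdrawal (1wk WD; n = 3, 5, and 4), none of which enter the No Dox comparison. There, 15.4% of 16435 genes tested were higher in β cells than in both and 5.27% were lower. Of the 2273 genes higher at No Dox, 1761 (77.5%) were higher again and 0 were lower, and of the 1147 lower ones 639 (55.7%) were lower again and 1 was higher. These 1wk WD calls numbered 2534 and 866, of which the repeated ones were 69.5 and 73.8%. The 1wk WD β cell libraries were unlike each other too: stromal genes took 1.61, 1.35, and 0.082% of replicates 1 to 3 and acinar genes 3.62, 0.631, and 0.0231%, and their part in the repeated calls was not tested. *Bhlha15* scored 847, 1452, and 6880 in these libraries, highest where acinar genes took least.

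**Figure D2:**
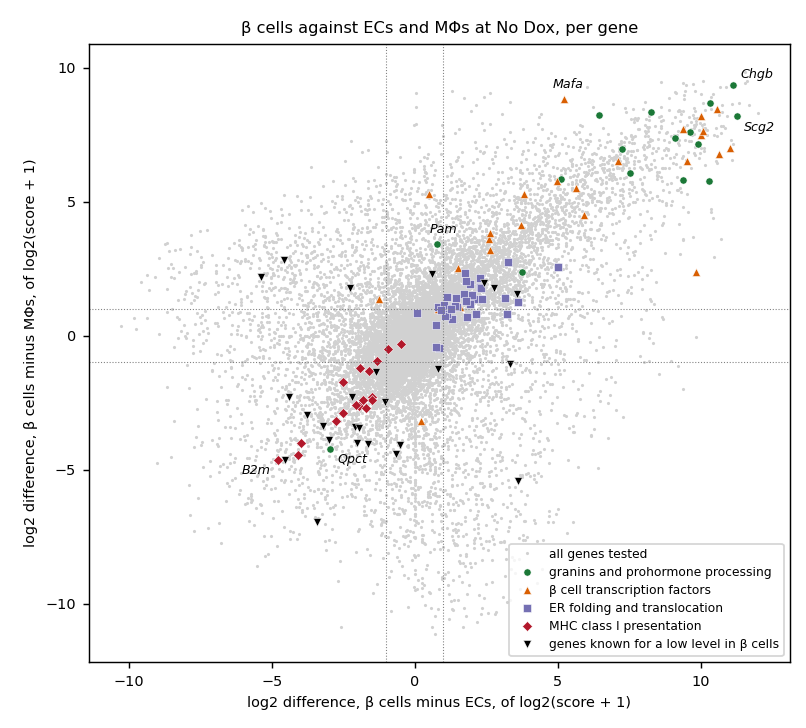
Difference in mean log2(score + 1) between β cells and ECs (horizontal axis) and between β cells and MΦs (vertical axis) for each of the 16380 genes tested, with 5 gene lists in color and dotted lines at a fold change of 2. Granin and prohormone processing genes lie at upper right, apart from *Qpct* and *Pam*, and the MHC class I genes lie at lower left.

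The insulin genes and the other products that β cells secrete came first. β cells were sorted by GFP under the *Ins1* promoter, so their high *Ins1* was set in part by the sort. *Ins1*, at chr19:52338813-52339946 of genome build mm9, scored 5388185, 3168657, 961141, and 296363 in β cells, 143, 891, 645, and 1299 in ECs, and 1046, 27471, 3345, and 1759 in MΦs. The lowest β cell value was above the highest of the other groups, in MΦ replicate 2, and the differences were 11.34 ± 1.12 from ECs (adjusted p = 8.67e-06) and 8.69 ± 1.12 from MΦs (adjusted p = 5.33e-05). *Ins2*, at chr7:149864561-149885415, scored 2775782, 1905594, 561806, and 273058 in β cells, 86, 444, 294, and 559 in ECs, and 756, 15116, 2802, and 1150 in MΦs. The differences were 11.71 ± 0.99 from ECs (adjusted p = 2.65e-06) and 8.59 ± 0.99 from MΦs (adjusted p = 2.23e-05). The coding parts of the insulin genes are much alike, so reads may have been split between them. *Iapp*, which encodes the amyloid peptide amylin released together with insulin, scored 376504, 334049, 100646, and 47427 in β cells, 29, 117, 78, and 89 in ECs, and 96, 2166, 393, and 281 in MΦs. Its differences were 11.11 ± 0.90 from ECs (adjusted p = 2.08e-06) and 8.65 ± 0.90 from MΦs (adjusted p = 1.12e-05). The gene model of *Iapp* overlaps that of *Slco1a5* on the other strand, and whether reads were counted by strand is not stated. The same holds for *B2m* and *Patl2*, *Cacna1c* and *Dcp1b*, *Cacna1d* and *Chdh*, *Insrr* and *Pear1*, *Muc4* and *Muc20*, and *Slc18a1* and *Atp6v1b2*, described below, while *Prlr* and *Agxt2* overlap on the same strand. *Ucn3* encodes urocortin 3, a peptide of mature β cells that acts on neighboring δ cells, and it scored 11339, 10751, 2160, and 998 in β cells, 3, 4, 3, and 16 in ECs, and 1, 19, 13, and 1 in MΦs. Its differences were 9.37 ± 1.02 from ECs (adjusted p = 1.66e-05) and 9.44 ± 1.02 from MΦs (adjusted p = 1.38e-05). All 4 products of this list that could be tested were higher in β cells than in both. In each of them the score was lower in replicates 3 and 4 than in replicates 1 and 2, and the β cell libraries still lay above all others. *Npy*, known from immature β cells, was below the minimum for testing, with β cell scores of 1, 8, 41, and 27 and 1 in all other libraries.

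The start regions of the genes for insulin 1, chromogranin B, and urocortin 3 are shown because they are the starts of genes for secreted β cell products described here. They run from 250 bases before to 50 bases after the annotated start, read 5′ to 3′ on the gene's strand, from RefSeq on build GRCm38.p6, and differ in build from the mm9 positions above. Capitals mark matches, on either strand, to 7 short sequences searched: the E-boxes CATCTG and CAGCTG, the homeodomain core TAATTA, the forkhead sequence TGTTTAC, the MAF sequence TGCTGAC, and GTTGCC and GTTAAT, parts of the sites of RFX and HNF1 factors.
*Ins1*, chr19:52264047-52264346, plus strand: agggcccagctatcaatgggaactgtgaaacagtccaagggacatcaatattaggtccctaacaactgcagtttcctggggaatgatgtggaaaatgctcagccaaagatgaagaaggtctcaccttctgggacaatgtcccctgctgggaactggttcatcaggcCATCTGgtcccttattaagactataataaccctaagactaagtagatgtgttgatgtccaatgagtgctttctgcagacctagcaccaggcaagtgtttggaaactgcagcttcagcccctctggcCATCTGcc
*Chgb*, chr2:132781392-132781691, plus strand: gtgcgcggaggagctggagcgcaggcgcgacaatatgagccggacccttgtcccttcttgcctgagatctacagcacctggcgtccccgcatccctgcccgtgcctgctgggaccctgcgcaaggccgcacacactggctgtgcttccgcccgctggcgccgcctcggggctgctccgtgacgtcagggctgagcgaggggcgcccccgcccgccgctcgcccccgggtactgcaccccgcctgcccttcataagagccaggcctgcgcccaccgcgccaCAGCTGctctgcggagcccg
*Ucn3*, chr13:3945300-3945599, minus strand: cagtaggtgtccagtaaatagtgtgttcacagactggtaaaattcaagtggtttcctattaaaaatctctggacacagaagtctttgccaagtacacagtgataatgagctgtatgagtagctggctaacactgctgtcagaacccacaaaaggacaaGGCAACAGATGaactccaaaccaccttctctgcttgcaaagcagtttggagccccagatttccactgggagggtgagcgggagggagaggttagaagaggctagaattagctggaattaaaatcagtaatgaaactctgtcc
*Ins1* held CATCTG at 2 places, *Chgb* held CAGCTG at 1, and *Ucn3* held GTTGCC and CATCTG at 1 place each, sharing 1 base. Of the 32851 such windows in RefSeq, 17.2% hold CATCTG, 16.3% CAGCTG, 12.5% GTTGCC, 5.29% TAATTA, 3.65% TGTTTAC, 4.67% TGCTGAC, and 7.10% GTTAAT. A match is a description of the letters and not evidence of a bound site.

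Granins and the enzymes that cut and trim prohormones were the list furthest above both other cell types after the insulin products. Of 16 genes, 14 were higher in β cells than in both, 1 was lower, and the median differences were 8.69 against ECs and 7.05 against MΦs, beside 0.07 and 0.12 over all genes tested. *Chgb*, which encodes the granule protein chromogranin B, scored 392556, 417614, 165136, and 55815 in β cells, 31, 107, 118, and 144 in ECs, and 73, 1374, 777, and 110 in MΦs. All 4 β cell libraries were far above the others, and the differences were 11.13 ± 0.96 from ECs (adjusted p = 3.19e-06) and 9.33 ± 0.96 from MΦs (adjusted p = 1.01e-05). *Pcsk1*, the convertase that makes the first cut in proinsulin, scored 24978, 22163, 10008, and 3363 in β cells, 31, 45, 28, and 46 in ECs, and 6, 227, 107, and 9 in MΦs. It differed by 8.28 ± 1.04 from ECs (adjusted p = 5.06e-05) and 8.33 ± 1.04 from MΦs (adjusted p = 4.11e-05). *Pcsk2* and *Cpe*, which finish the cutting and trimming, differed by 9.90 ± 0.76 from ECs (adjusted p = 1.46e-06) and 7.15 ± 0.76 from MΦs (adjusted p = 1.29e-05) and by 9.63 ± 0.70 from ECs (adjusted p = 9.46e-07) and 7.61 ± 0.70 from MΦs (adjusted p = 4.29e-06), in that order. *Scg2*, *Chga*, and *Scg5*, further granin family genes, had differences of 11.26 and 8.18, 10.32 and 8.66, and 10.29 and 5.76 from ECs and MΦs. *Pam*, which amidates peptide hormones, scored 14363, 12863, 10522, and 8793 in β cells, 7922, 6183, 5706, and 6948 in ECs, and 1195, 1010, 986, and 1116 in MΦs. All β cell libraries were above the others, but ECs were close, and only the difference from MΦs was called (3.41 ± 0.17, adjusted p = 5.71e-08), not that from ECs (0.78 ± 0.17, adjusted p = 0.0021). The difference of *Pam* from ECs was called with replicates 1 and 2 only (1.03, adjusted p = 0.000168) and after quantile normalization (1.14, adjusted p = 5.26e-05). *Qpct*, whose product forms pyroglutamate at peptide ends, was the exception in direction, with β cell scores of 23, 3, 72, and 498, EC scores of 209, 358, 372, and 454, and MΦ scores of 821, 487, 1291, and 807. Its differences were -2.96 ± 1.10 from ECs (adjusted p = 0.0429) and -4.22 ± 1.10 from MΦs (adjusted p = 0.00664). The call against ECs was lost when any library but β cell replicate 4 was left out (11 of 12, limma adjusted p 0.0518 to 0.0971).

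Zinc is stored with insulin in the granule, and zinc transport genes were compared as a list. Of 13 genes, 2 were higher in β cells than in both (15.4%, against 13.9% of all genes tested) and 0 lower, with median differences of 0.68 and 0.55. *Slc30a8*, the zinc transporter of the insulin granule, scored 75964, 101204, 23080, and 14896 in β cells, 3, 74, 10, and 65 in ECs, and 15, 1743, 386, and 110 in MΦs. The differences were 10.87 ± 1.36 from ECs (adjusted p = 4.9e-05) and 7.76 ± 1.36 from MΦs (adjusted p = 0.000496). The other gene called was *Slc39a7*, a zinc transporter of the endoplasmic reticulum, with differences of 1.91 and 1.69 from ECs and MΦs. *Slc30a1*, which exports zinc from the cell, was lower in β cells than in ECs (-2.70 ± 0.20, adjusted p = 1.04e-06) and did not pass the test against MΦs (-0.14 ± 0.20, adjusted p = 0.573).

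**Figure D3:**
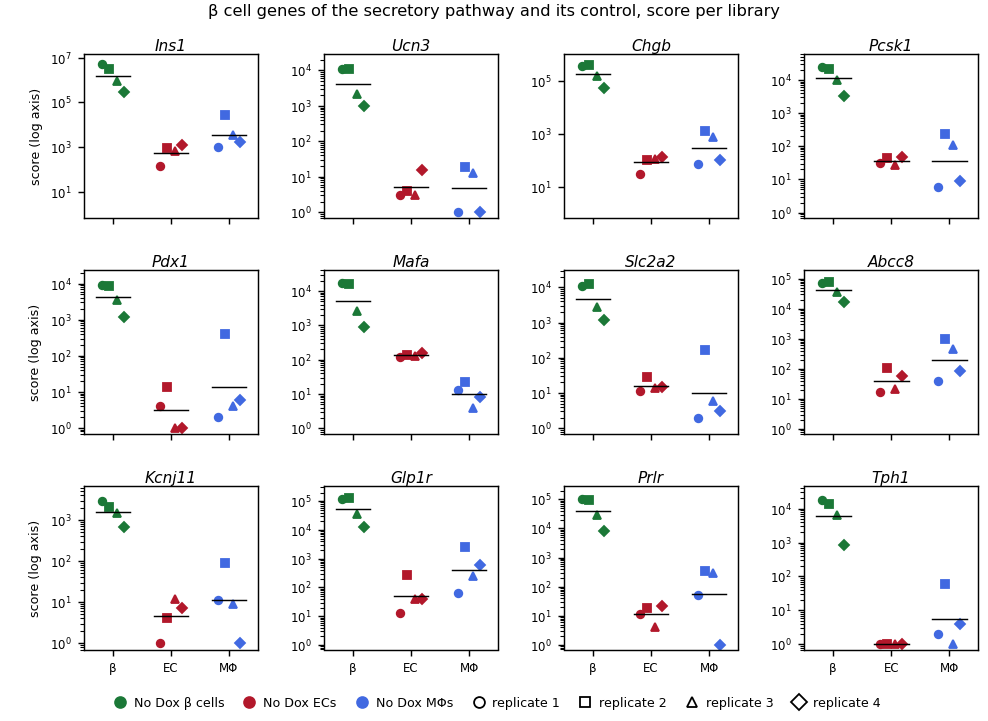
Score in each library (log axis) of 12 genes for insulin, granule proteins, transcription factors, glucose entry, the potassium channel, and receptors in No Dox β cells, ECs, and MΦs, n = 4 each, with the marker shape for the replicate and the back-transformed mean of log2(score + 1) as a line. β cell replicates 1 and 2 score above replicates 3 and 4 in each panel, and all 4 are above every EC and MΦ library.

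The transcription factors that build and maintain β cells were compared next. Of 26 tested, 20 were higher in β cells than in both and 0 were lower, with median differences of 5.10 against ECs and 5.29 against MΦs. *Pdx1*, which binds the insulin promoter and is needed for the pancreas to form, scored 9405, 8530, 3600, and 1157 in β cells, 4, 14, 1, and 1 in ECs, and 2, 411, 4, and 6 in MΦs. Its differences were 10.01 ± 1.40 from ECs (adjusted p = 0.000115) and 8.21 ± 1.40 from MΦs (adjusted p = 0.000412). *Nkx6-1*, a homeodomain factor of mature β cells, scored 11128, 10834, 3541, and 1548 in β cells, 1, 5, 1, and 4 in ECs, and 1, 158, 19, and 6 in MΦs. Its differences were 10.58 ± 1.16 from ECs (adjusted p = 1.86e-05) and 8.45 ± 1.16 from MΦs (adjusted p = 8.47e-05). *Mafa*, an activator of insulin transcription in mature β cells, scored 16818, 16274, 2652, and 870 in β cells, 122, 135, 125, and 157 in ECs, and 13, 22, 4, and 8 in MΦs, so that ECs carried a steady low score while MΦs were nearly without it. Its differences were 5.21 ± 0.85 from ECs (adjusted p = 0.000366) and 8.84 ± 0.85 from MΦs (adjusted p = 6.31e-06). *Neurod1*, *Nkx2-2*, *Isl1*, *Rfx6*, and *Myt1*, all factors of the endocrine pancreas, had differences from ECs of 9.37 to 11.02 and from MΦs of 6.53 to 7.71. *St18* was shared in part with MΦs, with scores of 32923, 35079, 16342, and 8105 in β cells, 25, 23, 20, and 16 in ECs, and 4798, 3454, 5176, and 2499 in MΦs. It differed by 9.83 ± 0.42 from ECs (adjusted p = 2.39e-08) and 2.37 ± 0.42 from MΦs (adjusted p = 0.00054). *Rfx3*, a factor of ciliated and endocrine cells, was also present in the other cells and showed the smallest called difference of the list, 1.52 ± 0.38 from ECs (adjusted p = 0.00544) and 1.25 ± 0.38 from MΦs (adjusted p = 0.0145). Without β cell replicate 2 its difference from MΦs was under a fold change of 2. *Neurog3*, the factor of endocrine progenitors, was called higher than both from β cell scores of only 7, 8, 68, and 21, against at most 3 in the other libraries, and was below the minimum with β cell replicates 1 and 2 only. *Pax4* scored 1 in all 12 libraries and was not tested.

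Genes for the entry and sensing of glucose moved in part. Of 14, 8 were higher in β cells than in both and 1 was lower, with median differences of 1.71 and 2.53. *Slc2a2*, the glucose transporter GLUT2, scored 10657, 12515, 2705, and 1180 in β cells, 11, 29, 14, and 15 in ECs, and 2, 162, 6, and 3 in MΦs. The differences were 8.05 ± 1.17 from ECs (adjusted p = 0.000153) and 8.71 ± 1.17 from MΦs (adjusted p = 7.21e-05). *G6pc2*, a glucose-6-phosphatase that returns glucose 6-phosphate to glucose, differed by 9.29 and 8.37 from ECs and MΦs, and *Pcx*, which feeds pyruvate into the citric acid cycle, by 3.67 and 3.74. *Pcx* and *Lrfn4* overlap on opposite strands, so their reads may be mixed. The shuttle genes *Gpd2* and *Slc25a12*, which carry reducing equivalents into mitochondria, were not called in either contrast, with differences of 0.39 and 0.03 and of 0.51 and -0.04. *Glud1*, the mitochondrial glutamate dehydrogenase, was the member lower in β cells than in both, with scores of 3609, 4393, 6382, and 5973 in β cells, 9834, 12793, 13492, and 11524 in ECs, and 11975, 15053, 17529, and 15715 in MΦs. Its differences were -1.25 ± 0.20 from ECs (adjusted p = 0.000275) and -1.59 ± 0.20 from MΦs (adjusted p = 3.95e-05), and the β cell libraries did not overlap with the others. The difference of *Glud1* from ECs was under a fold change of 2, and so not called, after quantile normalization (-0.95) and with β cell replicates 3 and 4 only (-0.94).

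For the ion channels that turn metabolism into a calcium signal, the list lay well above both. Of 23 genes, 17 were higher in β cells than in both and 0 lower, with median differences of 6.27 and 5.90. *Abcc8*, the sulfonylurea receptor subunit of the ATP-sensitive potassium channel, scored 74162, 80045, 35955, and 16223 in β cells, 17, 108, 22, and 56 in ECs, and 40, 999, 468, and 82 in MΦs. Its differences were 10.07 ± 0.97 from ECs (adjusted p = 7.04e-06) and 7.75 ± 0.97 from MΦs (adjusted p = 4.15e-05). *Kcnj11*, the pore of the same channel, scored 2856, 2128, 1473, and 694 in β cells, 1, 4, 12, and 7 in ECs, and 11, 91, 9, and 1 in MΦs. Its differences were 8.12 ± 1.02 from ECs (adjusted p = 4.98e-05) and 7.02 ± 1.02 from MΦs (adjusted p = 0.000126). For the L-type calcium channels, *Cacna1c* differed by 5.10 and 5.46 from ECs and MΦs, whereas *Cacna1d* scored 25533, 30081, 11586, and 6082 in β cells, 35, 96, 19, and 51 in ECs, and 4010, 4424, 3204, and 3616 in MΦs. Its difference was 8.45 ± 0.53 (adjusted p = 3.36e-07) from ECs and 2.01 ± 0.53 (adjusted p = 0.00695) from MΦs. The call of *Cacna1d* against MΦs was lost with array weights (adjusted p = 0.092) and with β cell replicates 3 and 4 only, where the difference was 1.15 (adjusted p = 0.0786). *Scn9a*, a sodium channel, scored 8361, 8768, 3425, and 1130 in β cells, 1, 1, 1, and 4 in ECs, and 3, 81, 2, and 1 in MΦs. Its difference from MΦs was 9.27 ± 1.09 (adjusted p = 2.65e-05). *Trpm2*, a calcium channel opened by oxidative stress, was higher than in ECs (6.76 ± 0.53, adjusted p = 1.68e-06) but lower than in MΦs (-3.82 ± 0.53, adjusted p = 9.38e-05).

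Exocytosis genes were higher in β cells for most members, although the protein complexes they form also serve other cells. Of 29, 22 were higher than both and 1 was lower, with median differences of 2.72 and 5.11. *Snap25*, a membrane fusion protein of neurons and endocrine cells, scored 37344, 49801, 16845, and 6162 in β cells, 8, 35, 23, and 43 in ECs, and 12, 592, 408, and 28 in MΦs. It differed by 9.76 ± 1.17 from ECs (adjusted p = 3.52e-05) and 7.74 ± 1.17 from MΦs (adjusted p = 0.000168). *Cadps*, which primes dense-core granules, and *Rimbp2*, which ties calcium channels to release sites, differed by 10.06 and 7.50 and by 10.46 and 7.48 from ECs and MΦs. *Vamp2*, the granule partner of SNAP25, was present throughout and differed by 1.57 and 1.53. *Stx1a*, a syntaxin of the same complex, scored 94, 132, 275, and 369 in β cells, 709, 643, 693, and 692 in ECs, and 32, 118, 1, and 42 in MΦs, which gave -1.85 ± 0.99 (adjusted p = 0.144) against ECs, not called, and 2.97 ± 0.99 (adjusted p = 0.0242) against MΦs, a call lost without β cell replicate 3 or 4. *Stx1a* was called lower than ECs with only the 2 groups compared (adjusted p = 0.00838), with 20 added to the scores (-1.74, adjusted p = 0.017), with all 32 samples sharing the spread (adjusted p = 0.032), and without MΦ replicate 3 (adjusted p = 0.0105). *Cplx1* was lower than both, with differences of -1.70 ± 0.57 from ECs (adjusted p = 0.0266) and -2.11 ± 0.57 from MΦs (adjusted p = 0.00779), of which that from ECs lost its call without EC replicate 1, 3, or 4 or β cell replicate 1, 2, or 3, whereas its relative *Cplx2* was higher, with 2.69 ± 0.63 from ECs (adjusted p = 0.00417) and 6.60 ± 0.63 from MΦs (adjusted p = 5.94e-06). Both complexins clamp and trigger vesicle fusion.

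Receptors through which hormones and nerves tune secretion were compared next. For 24 G protein-coupled receptor genes tested, 16 were higher in β cells than in both and 0 lower, with median differences of 5.43 and 3.58, and 7 more were below the minimum for testing. *Glp1r*, the receptor of the incretin GLP-1, scored 122072, 133286, 35860, and 12519 in β cells, 13, 272, 41, and 39 in ECs, and 65, 2621, 259, and 597 in MΦs. All β cell libraries were above the others, and the differences were 10.01 ± 1.18 from ECs (adjusted p = 3.17e-05) and 7.00 ± 1.18 from MΦs (adjusted p = 0.000378). *Gipr*, the other incretin receptor, scored 2291, 2471, 789, and 549 in β cells, 14, 29, 16, and 16 in ECs, and 4, 15, 24, and 1 in MΦs. The differences were 6.04 ± 0.79 from ECs (adjusted p = 6.93e-05) and 7.30 ± 0.79 from MΦs (adjusted p = 1.48e-05). The fatty acid receptor genes *Ffar1*, *Ffar2*, and *Ffar3* scored 1 in all 4 ECs, and their β cell scores were 183, 125, 48, and 32, then 1458, 981, 403, and 246, then 327, 551, 208, and 49. Against MΦs, *Ffar2* differed by 3.59 ± 0.60 (adjusted p = 0.000349). *Sstr3*, a somatostatin receptor, and *Galr1*, a galanin receptor, both of which lower insulin release, differed from ECs and MΦs by 9.76 and 8.48 and by 9.80 and 9.11. *Casr*, the calcium-sensing receptor, and *Gabbr2*, a GABA-B subunit, were also present in MΦs, with MΦ scores of 214, 397, 418, and 250 for *Casr* and 1631, 1305, 1771, and 1519 for *Gabbr2*. Their differences from MΦs were 4.39 ± 0.55 (adjusted p = 4.16e-05) and 2.92 ± 0.84 (adjusted p = 0.0112). That of *Gabbr2* lost its call with array weights (limma adjusted p = 0.118) and with β cell replicates 3 and 4 only (1.55, adjusted p = 0.131). *Chrm3*, the muscarinic receptor of the vagal response, was shared with ECs: it scored 2355, 2327, 740, and 396 in β cells, 1453, 1270, 899, and 1172 in ECs, and 58, 192, 19, and 22 in MΦs, and only the difference from MΦs was called (4.56 ± 0.73, adjusted p = 0.00027). *Adcyap1r1*, a receptor of the neuropeptide PACAP, scored 1, 1, 1280, and 3354 in β cell replicates 1 to 4, highest in the library with the highest stromal sum, and was not called in either contrast with all 4 libraries (0.94 ± 2.25, adjusted p = 0.752, and 3.28 ± 2.25, adjusted p = 0.236). With replicates 1 and 2 only, *Adcyap1r1* was lower than in ECs (-4.07, adjusted p = 0.00754), and with replicates 3 and 4 only it was higher than in ECs (5.95, adjusted p = 0.00111) and in MΦs (8.29, adjusted p = 0.000103).

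Genes of serotonin, dopamine, and GABA metabolism, known in β cells for local signaling, included the gene with the largest smaller-of-both difference. Of 14 tested, 8 were higher in β cells than in both and 1 was lower, with median differences of 4.66 and 5.09. *Tph1*, the rate-limiting enzyme of serotonin synthesis outside the brain, scored 17863, 13579, 6586, and 818 in β cells, 1, 1, 1, and 1 in ECs, and 2, 60, 1, and 4 in MΦs. Since it was at 1 in all ECs no fold is given against them, and the difference from MΦs was 9.84 ± 1.12 (adjusted p = 2.12e-05). *Tph2*, the enzyme of serotonin neurons, scored 2551, 2496, 514, and 140 in β cells, 22, 33, 23, and 13 in ECs, and 10, 10, 58, and 1 in MΦs. Its differences were 5.19 ± 1.08 from ECs (adjusted p = 0.00193) and 6.24 ± 1.08 from MΦs (adjusted p = 0.000459). *Th*, the first enzyme of dopamine synthesis, scored 897, 636, 139, and 73 in β cells and 1 in all other libraries but MΦ replicate 2, which scored 9. *Gad1*, one of the enzymes that make GABA, scored 4807, 5593, 542, and 341 in β cells, 2, 6, 6, and 2 in ECs, and 6, 55, 2, and 15 in MΦs. It differed by 8.35 ± 1.08 from ECs (adjusted p = 6.03e-05) and 7.00 ± 1.08 from MΦs (adjusted p = 0.000192). *Gad2*, the other, was called against ECs (2.48 ± 0.84, adjusted p = 0.0285), a call lost without EC replicate 2, 3, or 4 or β cell replicate 1 or 2, and not against MΦs (1.97 ± 0.84, adjusted p = 0.0644). *Gad2* was called against MΦs with replicates 1 and 2 only (3.70, adjusted p = 8.42e-05), with all 32 samples sharing the spread, and without β cell replicate 3 or 4. *Slc18a1*, a vesicular monoamine transporter, was higher than both (7.27 and 5.12). *Slc18a2*, the related transporter used as a β cell imaging target in people, was lower than both, with scores of 711, 1006, 774, and 1489 in β cells, 2172, 2090, 1839, and 2074 in ECs, and 1704, 1833, 2505, and 1706 in MΦs and differences of -1.10 ± 0.22 from ECs (adjusted p = 0.00156) and -1.0 ± 0.22 from MΦs (adjusted p = 0.00238). These lie at the fold change of 2, and the calls were lost without β cell replicate 1 or 3 and, against MΦs, without MΦ replicate 3.

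Of 20 growth factor receptor genes tested, 8 were higher in β cells than in both (40.0%, against 13.9% of all genes tested) and 2 lower (10.0%, against 7.00%), with median differences of 1.30 and 2.80. The counts were 6 higher and 2 lower with replicates 1 and 2 only, against 16.1 and 13.0% of all genes, and the medians were 1.49 and 1.67. *Prlr*, the prolactin receptor through which β cells expand in pregnancy, scored 101286, 93572, 29925, and 8414 in β cells, 12, 18, 4, and 22 in ECs, and 50, 340, 303, and 1 in MΦs. Its differences were 11.56 ± 1.44 from ECs (adjusted p = 4.64e-05) and 9.43 ± 1.44 from MΦs (adjusted p = 0.000181). *Ntrk2*, *Ret*, and *Gfra3*, receptors or coreceptors of neurotrophic factors, differed by 7.70 and 6.68, by 4.63 and 6.43, and by 8.51 and 7.33 from ECs and MΦs. *Insrr*, a relative of the insulin receptor, differed by 10.38 and 8.47, whereas *Insr*, the insulin receptor itself, was lower in β cells than in ECs (-2.37 ± 0.14, adjusted p = 1.8e-07) and was not called against MΦs (0.16 ± 0.14, adjusted p = 0.331). *Igf1r* was not called in either contrast with all 4 libraries (0.47 and 0.81). Against MΦs *Igf1r* was called with replicates 1 and 2 only (1.02, adjusted p = 3.31e-05) and after quantile normalization (1.16, adjusted p = 6.23e-06). *Fgfr1* and *Kit* were the members lower than both. *Fgfr1* scored 168, 90, 1467, and 2281 in β cells, 4486, 4996, 4275, and 4587 in ECs, and 4322, 4145, 3221, and 4887 in MΦs, with the β cell values of replicates 3 and 4 closer to those of the other cells.

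Genes that fold secretory proteins and carry them into the endoplasmic reticulum (ER) were higher in β cells by modest but widespread amounts. Of 36, 23 were higher in β cells than in both (63.9%, against 13.9% of all genes tested) and 0 lower, with 30 called higher than ECs and 24 higher than MΦs and median differences of 1.77 and 1.21. *Ero1lb*, an oxidase that forms disulfide bonds and is known for its high level in islets, scored 50668, 41717, 23841, and 10562 in β cells, 749, 1798, 638, and 574 in ECs, and 3370, 9693, 3381, and 3842 in MΦs. The differences were 5.01 ± 0.53 from ECs (adjusted p = 1.4e-05) and 2.57 ± 0.53 from MΦs (adjusted p = 0.00154). *Hyou1*, an ER chaperone, and *Ern1*, the stress sensor IRE1α, differed by 3.27 and 2.73 and by 3.16 and 1.40 from ECs and MΦs. *Hspa5*, the main ER chaperone BiP, scored 49137, 34505, 35731, and 26430 in β cells, 8006, 10905, 11321, and 10332 in ECs, and 18000, 22385, 22644, and 24585 in MΦs. Only its difference from ECs was called (1.82 ± 0.20, adjusted p = 1.58e-05), and that from MΦs was 0.71 ± 0.20 (adjusted p = 0.00931). After quantile normalization *Hspa5* was called against MΦs too (1.06, adjusted p = 0.000164). The 3 SEC61 genes of the translocation channel and all 4 SSR genes of its associated complex were higher than both, with *Sec61b* at 2.37 and 1.35 and *Ssr4* at 2.32 and 1.79. The call of *Sec61b* against MΦs was lost without MΦ replicate 1 or β cell replicate 1. *Sel1l*, which helps return misfolded proteins to the cytosol, scored higher in the β cell libraries rich in acinar RNA, with 13932, 8873, 30532, and 19784 in replicates 1 to 4, and in MΦ replicate 2, with 24946, and the part of acinar RNA in these values was not tested. At 1wk WD, 10 of the 36 genes were higher than both and 0 lower, against 15.4 and 5.27% of all genes tested there.

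β cells are epithelial cells with many neuronal traits, and both sides were seen. Of 21 genes in the epithelial list, 18 were higher in β cells than in both and 0 lower, with median differences of 5.06 and 3.38. The list, and the 18, include the adhesion genes *Cdh2* and *Ncam1*, which are not particular to epithelia. *Cdh1*, encoding E-cadherin, scored 11280, 10754, 6601, and 3581 in β cells, 5, 234, 35, and 57 in ECs, and 400, 2085, 616, and 608 in MΦs. Its differences were 7.47 ± 0.92 from ECs (adjusted p = 4.35e-05) and 3.29 ± 0.92 from MΦs (adjusted p = 0.00976). The call of *Cdh1* against MΦs was lost with array weights (limma adjusted p = 0.196) and with β cell replicates 3 and 4 only (2.70, adjusted p = 0.0698). The neural adhesion genes *Cdh2* and *Ncam1* differed by 6.78 and 5.86 and by 5.96 and 6.99 from ECs and MΦs. Keratin genes *Krt8* and *Krt18* differed by 7.70 and 4.98 and by 6.89 and 5.79, and in MΦs both were highest in replicates 2 and 4, the libraries with acinar RNA. Of 16 neuronal-type RNA-binding genes tested, *Rest* included, 9 were higher in β cells than in both and 1 lower, with median differences of 2.64 and 4.55. *Elavl4*, which stabilizes neuronal transcripts, scored 10676, 13411, 4827, and 1958 in β cells, 2, 2, 10, and 7 in ECs, and 5, 159, 32, and 2 in MΦs. It differed by 10.16 ± 1.12 from ECs (adjusted p = 1.95e-05) and 8.43 ± 1.12 from MΦs (adjusted p = 6.75e-05). *Srrm4*, a neural splicing activator, scored 1381, 1345, 556, and 164 in β cells, 5, 2, 1, and 5 in ECs, and 1 in all MΦs, and its difference from ECs was 7.39 ± 0.69 (adjusted p = 5.77e-06). *Nova2* and *Rbfox2* were higher than in MΦs (5.20 ± 0.67, adjusted p = 5.1e-05, and 4.67 ± 0.25, adjusted p = 1.23e-07) but lower than in ECs (-4.12 ± 0.67, adjusted p = 0.000341, and -1.11 ± 0.25, adjusted p = 0.00335), for *Rbfox2* by under a fold change of 2 without β cell replicate 3.

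*Rest* encodes the repressor that keeps neuronal genes off in other tissues, and it was the member lower than both. It scored 25, 5, 831, and 1358 in β cell replicates 1 to 4, 2006, 2250, 2442, and 2145 in ECs, and 3414, 2458, 2707, and 2496 in MΦs. Replicates 1 and 2 were nearly without it and replicates 3 and 4 came to within a few fold of the other cells, so that the differences of -4.26 ± 1.38 from ECs (adjusted p = 0.0232) and -4.57 ± 1.38 from MΦs (adjusted p = 0.0145) became -7.46 ± 0.44 from ECs (adjusted p = 2.23e-07) and -7.78 ± 0.44 from MΦs (adjusted p = 1.43e-07) with replicates 1 and 2 only. The call against ECs was lost without EC replicate 3 or β cell replicate 1 (adjusted p 0.0503 and 0.0678). At 1wk WD, β cell replicates 1 to 3 scored 1527, 821, and 229, ECs 2377, 2650, 2345, 1840, and 2248, and MΦs 2924, 3817, 3474, and 3209. The third of these β cell libraries, with the lowest *Rest*, was also the one with the lowest stromal sum, 32042 against 447378 and 395237. The part of stromal RNA in the *Rest* scores was not tested.

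Other islet hormones were found in the β cell libraries too, and more in some than in others. Of 7 genes tested for these hormones and their regulators, 5 were higher in β cells than in both and 1 lower, with median differences of 7.46 and 4.17. *Gcg*, the glucagon gene of α cells, scored 26028, 37239, 64922, and 55585 in β cells, 7, 619, 21, and 239 in ECs, and 138, 22058, 5805, and 1869 in MΦs, and *Sst*, the somatostatin gene of δ cells, scored 7531, 6792, 77372, and 29998 in β cells, 2, 177, 38, and 85 in ECs, and 51, 3131, 961, and 677 in MΦs. Both were higher in β cell replicates 3 and 4 than in replicates 1 and 2, opposite to the insulin genes. The differences of *Gcg* were 9.24 ± 1.55 from ECs (adjusted p = 0.000431) and 4.17 ± 1.55 from MΦs (adjusted p = 0.0383), and those of *Sst* were 8.99 ± 1.43 from ECs (adjusted p = 0.00029) and 5.02 ± 1.43 from MΦs (adjusted p = 0.0106). The call of *Gcg* against MΦs was lost without any 1 of the β cell libraries and without MΦ replicate 1 or 4 (adjusted p 0.0544 to 0.111). With replicates 1 and 2 only, neither was called higher than both, and the adjusted p against MΦs was 0.135 for *Gcg* and 0.0854 for *Sst*. *Ppy* and *Pyy*, peptides of pancreatic polypeptide cells, were still higher than both with these replicates. *Hhex*, a factor of δ cells that ECs and MΦs also use, was lower than both, with 28, 60, 575, and 392 in β cells against 848 to 1753 in the other libraries.

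The 15 genes with the largest smaller-of-both difference, among those with all 4 β cell libraries above all 8 others, were *Tph1*, *Muc4*, *Gpr158*, *Prlr*, *Ucn3*, *Tmem132b*, *Fbxw24*, *Chgb*, *Scn9a*, *Fam135b*, *Myo3a*, *Galr1*, *S100z*, *Rerg*, and *Ap3b2*. This order rests on the 1 added to each score, since many of the EC and MΦ scores are near 1. With 20 added, 5 of these genes were among the first 15, namely *Tph1*, *Muc4*, *Gpr158*, *Prlr*, and *Chgb*, and with 0.1 added 13 were. *Muc4*, a membrane mucin, scored 25613, 37082, 8207, and 2511 in β cells, 10, 16, 5, and 11 in ECs, and 1, 170, 109, and 1 in MΦs. The differences were 10.10 ± 1.46 from ECs (adjusted p = 0.000142) and 9.48 ± 1.46 from MΦs (adjusted p = 0.000192). *Gpr158*, an orphan receptor of neurons, scored 50030, 59689, 15388, and 5477 in β cells, 1, 23, 3, and 12 in ECs, and 1, 447, 90, and 11 in MΦs. Its differences were 11.63 ± 1.49 from ECs (adjusted p = 5.84e-05) and 9.48 ± 1.49 from MΦs (adjusted p = 0.000227). *Ap3b2*, the neuronal subunit of a vesicle coat adaptor, scored 5333, 4540, 2494, and 1137 in β cells and above 4 in only 1 other library, MΦ replicate 2 with 113. *S100z*, a calcium-binding protein gene, scored 1515, 2898, 733, and 449 in β cells and 1 in all 8 other libraries, so no fold is given. *Fbxw24* belongs to a family of near-identical copies, so its scores of 5320, 4541, 1558, and 110 are uncertain. In each of the 15, β cell replicates 1 and 2 both scored above replicates 3 and 4.

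Genes for MHC class I antigen presentation were lower in β cells as a group. Of 17 tested, 13 were lower than both (76.5%, against 7.00% of all genes tested) and 0 higher, with median differences of -1.91 and -2.40. *H2-K1*, a classical class I heavy chain, was even across the β cell libraries, with scores of 7160, 5503, 5973, and 6948 in β cells, 16326, 16689, 21806, and 18248 in ECs, and 22701, 23774, 42695, and 39042 in MΦs and differences of -1.51 ± 0.22 from ECs (adjusted p = 0.000132) and -2.28 ± 0.22 from MΦs (adjusted p = 5.56e-06). *H2-D1*, the other classical heavy chain, differed by -1.95 ± 0.23 from ECs (adjusted p = 3.03e-05) and -2.63 ± 0.23 from MΦs (adjusted p = 3.01e-06). The heavy chain genes are much alike in sequence, so their scores are uncertain in how reads were split. *B2m*, the light chain that all class I molecules need, scored 611, 485, 6686, and 16705 in β cells, 48501, 61358, 81320, and 77341 in ECs, and 44126, 58778, 78167, and 60501 in MΦs. Its β cell scores were lowest in replicates 1 and 2, and the differences of -4.78 ± 0.93 from ECs (adjusted p = 0.00124) and -4.62 ± 0.93 from MΦs (adjusted p = 0.0013) became -6.91 ± 0.26 from ECs (adjusted p = 9.08e-09) and -6.76 ± 0.26 from MΦs (adjusted p = 9.16e-09) with these replicates only. *Psmb8* and *Psmb9*, subunits of the immunoproteasome, and *Tap1*, the peptide transporter, differed by -2.07 and -2.58, by -2.77 and -3.18, and by -1.71 and -2.71 from ECs and MΦs, and *Psmb9* and *Tap1* overlap on opposite strands. *Tap2* and *H2-T22* were not called in either contrast. At 1wk WD, 11 of the 17 genes were lower than both (5.27% of all genes) and 0 higher, and *B2m* differed by -3.17 ± 0.36 from ECs (adjusted p = 7.92e-06) and -3.07 ± 0.38 from MΦs (adjusted p = 1.32e-05).

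**Figure D4:**
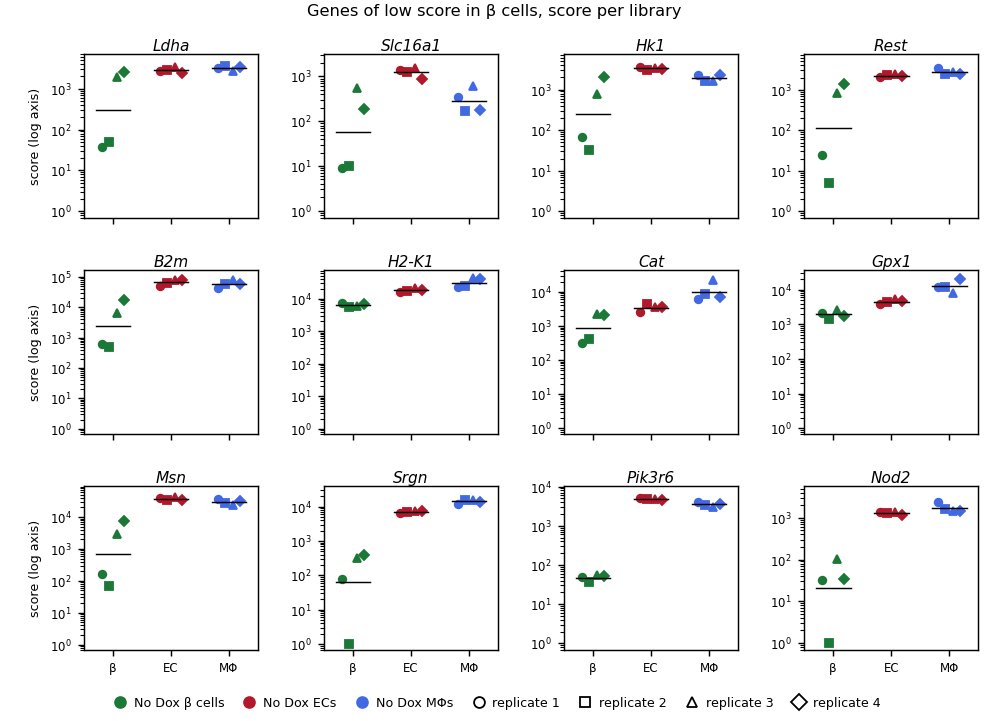
Score in each library (log axis) of 12 genes of low score in No Dox β cells, beside ECs and MΦs, n = 4 each, with the marker shape for the replicate and the back-transformed mean of log2(score + 1) as a line. For *Ldha*, *Slc16a1*, *Hk1*, *Rest*, *B2m*, *Cat*, and *Msn*, β cell replicates 3 and 4 lie well above replicates 1 and 2, whereas *H2-K1*, *Gpx1*, and *Pik3r6* are even across the β cell libraries.

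Genes known for a low level in β cells, often called disallowed, were among the lists that turned most on the choice of β cell library. Of 25, 6 were lower than both with all 4 libraries, namely *Cat*, *Fcgrt*, *Hk1*, *Ldha*, *Smad3*, and *Zyx*, and 0 were higher, with median differences of -1.96 and -2.47. With replicates 1 and 2 only, 15 were lower than both and 0 higher, against 13.0% of all genes, and the medians were -3.43 and -4.75. *Ldha*, the enzyme that makes lactate from pyruvate, scored 37, 50, 1922, and 2496 in β cell replicates 1 to 4, 2770, 2844, 3381, and 2478 in ECs, and 3261, 3497, 2653, and 3396 in MΦs. Replicates 1 and 2 were far below every other library, replicate 3 was closer to the other cells, and replicate 4 was above the lowest EC. Its differences were -3.20 ± 1.18 from ECs (adjusted p = 0.0415) and -3.36 ± 1.18 from MΦs (adjusted p = 0.0302) with all libraries and -6.02 ± 0.18 from ECs (adjusted p = 3.01e-09) and -6.18 ± 0.18 from MΦs (adjusted p = 2.64e-09) with replicates 1 and 2 only. With all libraries the call was close to the threshold: against ECs it was lost when any 1 library but β cell replicate 3 or 4 was left out (10 of 12), and against MΦs without any 1 MΦ library or β cell replicate 1 or 2. *Slc16a1*, the lactate and pyruvate carrier MCT1, scored 9, 10, 558, and 185 in β cells, 1367, 1270, 1530, and 865 in ECs, and 346, 166, 605, and 179 in MΦs, and was not called lower than MΦs with all 4 libraries. *Slc16a1* differed from MΦs by -4.75 with replicates 1 and 2 only (adjusted p = 1.41e-05), after quantile normalization by -2.59 (adjusted p = 0.0493), and without β cell replicate 3 by -3.37 (adjusted p = 0.00963). *Hk1*, a hexokinase of high glucose affinity, scored 69, 33, 770, and 2081 in β cells, 3693, 3063, 3399, and 3305 in ECs, and 2238, 1618, 1672, and 2231 in MΦs. Its differences were -3.76 ± 1.02 from ECs (adjusted p = 0.00948) and -2.95 ± 1.02 from MΦs (adjusted p = 0.0281). The call against MΦs was lost without MΦ replicate 1, 3, or 4 or β cell replicate 1 or 2. *Pdgfra*, the receptor of platelet-derived growth factor that stromal cells carry, scored 3, 3, 3019, and 10967 in β cells and at most 16 in ECs and 186 in MΦs, a pattern like that of the stromal sums. At 1wk WD, 3 of the 25 genes were higher than both and 2 lower, against 15.4 and 5.27% of all genes tested there. β cell *Ldha* scored there 1018, 1475, and 170, lowest in the library of the lowest stromal sum, and the differences were -2.08 ± 0.50 from ECs (adjusted p = 0.00343) and -2.50 ± 0.52 from MΦs (adjusted p = 0.00109). The part of stromal and acinar RNA in these scores was not tested.

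Of 25 antioxidant enzyme genes, 1 was higher in β cells than in both and 3 were lower, with median differences of -0.06 and 0.17, near those over all genes. *Gpx3*, a secreted glutathione peroxidase, was the one higher than both, with even scores of 16105, 10384, 13084, and 15114 in β cells, 222, 201, 171, and 226 in ECs, and 585, 1154, 165, and 352 in MΦs and differences of 6.04 ± 0.45 from ECs (adjusted p = 1.23e-06) and 4.92 ± 0.45 from MΦs (adjusted p = 4.48e-06). *Gpx1*, its cytosolic relative, was lower than both, with scores of 2100, 1473, 2653, and 1715 in β cells, 3809, 4295, 5469, and 4728 in ECs, and 11825, 12346, 8295, and 20344 in MΦs and differences of -1.23 ± 0.26 from ECs (adjusted p = 0.00213) and -2.69 ± 0.26 from MΦs (adjusted p = 6.19e-06). *Cat*, the catalase gene known for a low level in β cells, scored 310, 422, 2278, and 2118 in β cells, 2645, 4277, 3615, and 3543 in ECs, and 6383, 8563, 22086, and 7298 in MΦs. It differed by -1.96 ± 0.63 from ECs (adjusted p = 0.0227) and -3.44 ± 0.63 from MΦs (adjusted p = 0.00068). The call against ECs was lost without EC replicate 2 or β cell replicate 1 or 2 (adjusted p 0.0554 to 0.0642). *Hmox1*, which degrades heme, was also lower than both (-1.21 and -4.82), a call lost against ECs in 6 of 12 fits without 1 library, those without EC replicate 2, 3, or 4, MΦ replicate 4, or β cell replicate 2 or 3. *Sod1*, *Prdx2*, and *Txn2* were not called in either contrast, with differences between -0.16 and 0.40.

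Of 28 genes for the actin cytoskeleton, vimentin, and mesenchymal regulators, 7 were lower in β cells than in both and 0 higher with all 4 libraries, against 7.00% of all genes lower, and 16 of 27 were lower with replicates 1 and 2 only, against 13.0%. The stromal marker sums of 1429 and 1269 in replicates 1 and 2 and of 173597 and 589753 in replicates 3 and 4 stand beside these counts, and their part in them was not tested. *Msn*, encoding the membrane linker moesin, scored 159, 71, 2986, and 7537 in β cells, 38769, 35561, 43072, and 34490 in ECs, and 35664, 27415, 24648, and 31440 in MΦs. The differences were -5.73 ± 1.17 from ECs (adjusted p = 0.00168) and -5.37 ± 1.17 from MΦs (adjusted p = 0.00219). *Vim*, the vimentin gene, scored 140, 97, 7935, and 20214 in β cells, 8669, 12788, 12006, and 12009 in ECs, and 57130, 50968, 82962, and 68716 in MΦs. Its difference from ECs did not pass the main test with all 4 libraries (-3.20 ± 1.43, adjusted p = 0.0832). It passed with array weights (limma adjusted p = 0.0263), with all 32 samples sharing the spread (adjusted p = 0.0111), and without β cell replicate 3 (-4.10) or 4 (-4.55). With replicates 1 and 2 only, the differences of *Vim* were -6.58 ± 0.23 from ECs (adjusted p = 6.32e-09) and -9.08 ± 0.23 from MΦs (adjusted p = 1.13e-09). With replicates 3 and 4 only, that from ECs was 0.17 (adjusted p = 0.714). *Ets2*, a transcription factor gene, scored 2739, 2023, 1882, and 1081 in β cells, below every other library, with differences of -3.42 ± 0.23 from ECs (adjusted p = 5.39e-07) and -1.71 ± 0.23 from MΦs (adjusted p = 6.98e-05).

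The 15 genes with the largest smaller-of-both difference in the other direction, with all 4 β cell libraries below all 8 others, were *Gngt2*, *Ly6c2*, *Gm4070*, *Srgn*, *Abi3*, *Pik3r6*, *Bst1*, *Lmo2*, *Ifi47*, *Nod2*, *9930111J21Rik1*, *Dab2*, *Tnfaip2*, *Ahrr*, and *Prps1l1*. With 20 added to the scores in place of 1, 6 of them were among the first 15, namely *Gngt2*, *Srgn*, *Abi3*, *Pik3r6*, *Dab2*, and *Tnfaip2*, and with 0.1 added 13 were. *Srgn*, the granule proteoglycan serglycin, scored 76, 1, 312, and 383 in β cells, 6446, 6996, 7593, and 7423 in ECs, and 11982, 15224, 15420, and 14013 in MΦs. It differed by -6.76 ± 1.27 from ECs (adjusted p = 0.000947) and -7.75 ± 1.27 from MΦs (adjusted p = 0.0003). *Pik3r6*, a regulatory subunit of phosphoinositide 3-kinase γ, was the most even of them in β cells, with scores of 50, 36, 57, and 51 in β cells, 5052, 4783, 4790, and 4407 in ECs, and 4010, 3327, 3056, and 3654 in MΦs. Its differences were -6.60 ± 0.16 from ECs (adjusted p = 1.23e-09) and -6.16 ± 0.16 from MΦs (adjusted p = 2.74e-09). *Lmo2*, a transcription cofactor of blood and vessel formation, scored 13, 1, 155, and 118 in β cells against 1382 to 2638 elsewhere. *Nod2*, a sensor of bacterial cell walls, scored 32, 1, 104, and 35 in β cells against 1174 to 2463 elsewhere. *Gngt2* and *Abi3* overlap on opposite strands and may share reads, and *Ly6c2*, *Gm4070*, *9930111J21Rik1*, and *Prps1l1* have close relatives or copies, so these 6 are uncertain. *Bst1* and *Ifi47* also overlap other genes, *Fbxl5* and *Olfr56*. At 1wk WD, *Srgn* differed by -2.83 ± 0.23 from ECs (adjusted p = 3.7e-07) and -3.98 ± 0.24 from MΦs (adjusted p = 2.83e-08) and *Pik3r6* by -4.34 ± 0.22 from ECs (adjusted p = 1.13e-08) and -4.13 ± 0.23 from MΦs (adjusted p = 1.67e-08).

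**Figure D5:**
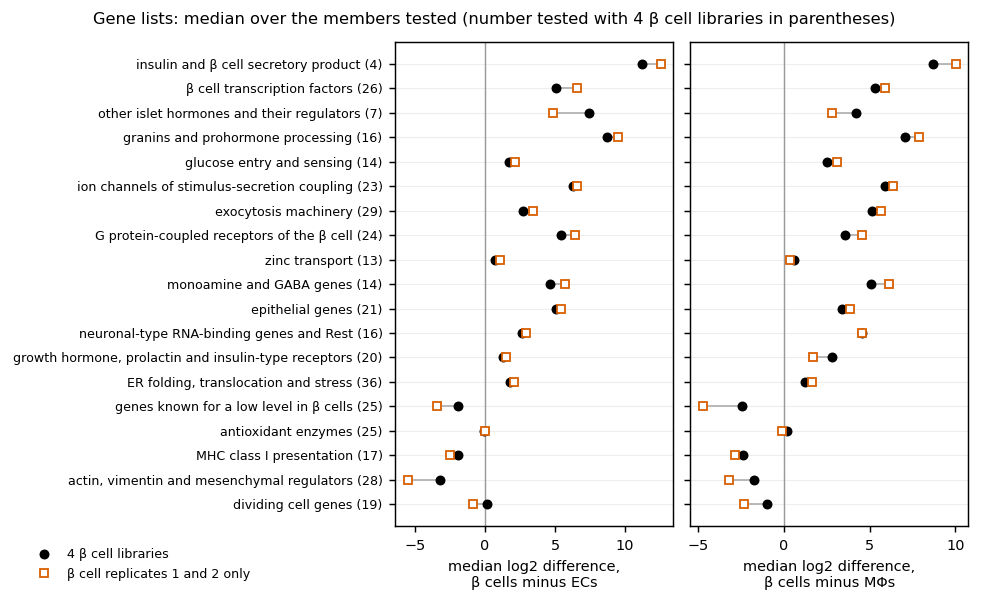
Median difference in log2(score + 1) of 19 gene lists between β cells and ECs (left) and between β cells and MΦs (right), with all 4 β cell libraries (filled circles) and with β cell replicates 1 and 2 only (open squares), and the number of members tested in parentheses. Without replicates 3 and 4 the medians against ECs go from -1.96 to -3.43 for genes known for a low level in β cells, from -3.20 to -5.52 for actin and mesenchymal genes, and from 7.46 to 6.22 for other islet hormones, over the members tested in both fits. The squares use all members tested without replicates 3 and 4, which for other islet hormones are 8 in place of 7 and give 4.84.

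Genes of dividing cells gave few calls. Of 19, 1 was higher in β cells than in both (5.26%, against 13.9% of all genes tested) and 0 lower with all 4 libraries. The 1 was *Ccnd2*, the D-type cyclin that β cells use, which scored 12771, 13386, 6896, and 4971 in β cells, 2485, 2368, 2620, and 2163 in ECs, and 2818, 2888, 2421, and 2250 in MΦs. The differences were 1.86 ± 0.27 from ECs (adjusted p = 0.000168) and 1.76 ± 0.27 from MΦs (adjusted p = 0.000215). *Mki67*, a marker of cycling cells, scored 1619, 1320, 5660, and 3882 in β cells, 1852, 3545, 1953, and 2509 in ECs, and 8625, 7880, 12226, and 5586 in MΦs, and it was lower than in MΦs (-1.66 ± 0.43, adjusted p = 0.00677) and not called against ECs (0.14 ± 0.43, adjusted p = 0.815). It was higher in β cell replicates 3 and 4 than in replicates 1 and 2. With replicates 1 and 2 only, 7 of the 19 were lower than both, against 13.0% of all genes.

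Markers of other cells completed the description. All 16 endothelial markers were lower in β cells than in ECs and all 18 macrophage markers lower than in MΦs, of which the CD31 and CD11b genes *Pecam1* and *Itgam* were used for sorting. Of 17 stromal genes, 1 was higher than both with all 4 β cell libraries, and with replicates 1 and 2 only, when 16 could be tested, 0 were higher and 6 lower, against 16.1 and 13.0% of all genes. At 1wk WD, 14 of the 17 were higher than both, against 15.4% of all genes. Of 8 Schwann cell genes, 4 were higher than both, and 2 were with replicates 1 and 2 only, when 5 could be tested, against 16.1% of all genes. Of 11 duct genes tested, 4 were higher than both with all 4 libraries and 5 with replicates 1 and 2 only, against 13.9 and 16.1% of all genes. *Cftr*, the chloride channel of duct cells, scored 554, 656, 233, and 66 in β cells, 1, 3, 2, and 1 in ECs, and 4, 68, 1, and 1 in MΦs. Of 6 neutrophil markers tested, 1 was lower than both, and 0 of 5 erythroid and 10 lymphocyte markers were called in either direction against both.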

How the data were processed

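RNA of sorted β cells, ECs, and MΦs was amplified (NuGEN Ovation) and sequenced on an Illumina HiSeq 2500, and per the labels and the study's methods the reads were aligned to mm9 with TopHat 2.0. The deposited table gives scores: the authors normalized expression by TMM (trimmed mean of M values) in Avadis NGS and rounded it, with 1 as the lowest value. Depth is unknown, and neither the annotation version nor whether reads were counted by strand is given in the sources used here. Sums of scores were 32377619 to 53441769 per library. The labels and the methods differ in the minimum RNA integrity number. The table has 38 sample columns, of which 32 belong to this series and 6 were not used.

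Scores were taken as log2(score + 1) and fitted in limma 3.58.1 (R 4.3.3) with a mean for each of the 3 No Dox groups and empirical Bayes moderation with a trend. Genes needed a mean score of 20 or more in at least 1 group. p-values were adjusted by the Benjamini-Hochberg method over all genes tested in each contrast. The study's own z-score test is not described fully enough to repeat. The 1wk WD samples were fitted alone in the same way. The script was tested on simulated data. Genes were named from 28 lists (543 entries, 5 not in the table, 5 with a symbol on more than 1 gene, for which the gene of highest mean was used), with the members of highest level and of largest, smallest, or opposite difference as examples, and as the 15 with the largest smaller-of-both difference in each direction. *Bhlha15*, *Sel1l*, *Adcyap1r1*, and *Pdgfra* were chosen after their values were seen. Some genes that this rule names are not reported here. The members and lists were chosen with earlier results of these data known. Alternatives were other pseudocounts, filters, scalings, and fold changes, other estimates of the spread, subsets of β cell libraries, a replicate block, and leaving out each library in turn. Promoter windows were matched by symbol to RefSeq (GRCm38.p6, 27025 symbols). Other tools were Python 3.11.15, pandas 2.3.3, numpy 2.4.6, and matplotlib 3.10.9.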

Additional observations from a re-analysis of the deposited data

Results flagged for a closer look

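In 10 of 357 groups of 4 libraries (119 genes in 3 cell types, on the log2 scale), 1 library stood apart by Dixon's ratio of its gap to the whole range. Chance flags about 1 in 20 groups of normally spread values, a rate that does not hold where several libraries tie at 1. In MΦs the highest library stood apart for *Ap3b2* (ratio 1.000, replicate 2 at 113), *Th* (1.000, replicate 2 at 9), *Ero1lb* (0.876, replicate 2 at 9693), *Fbxw24* (1.000, replicate 4 at 2), and *Ffar1* (1.000, replicate 1 at 4). In ECs the highest library stood apart for *Gfra3* (1.000, replicate 3 at 3), *Scn9a* (1.000, replicate 4 at 4), *Sstr3* (1.000, replicate 2 at 5), and *Ucn3* (0.846, replicate 4 at 16), all at low scores. The lowest EC library stood apart for *Vim* (0.838, replicate 1 at 8669). The 3 MΦ flags in replicate 2 fall in the library with the highest share of acinar RNA and of β cell secretory products among MΦs, whose part in them was not tested.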

How the results depend on the processing

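The count of genes higher in β cells than in both stayed within 1.5 times its value of 2273 under every setting run, at 2069 to 2461 when 1 library was left out in turn and at its lowest, 1653, with a fold change of 4. The count of genes lower than both, 1147, was 952 to 1515 when 1 library was left out, 567 with a fold change of 4, and 2103 with β cell replicates 1 and 2 only. Of these, the number also lower at 1wk WD, 639, was 576 to 669 without 1 library, 211 with a fold change of 4, and 1086 after quantile normalization. Differing genes numbered 5578 to 6747 against ECs and 6614 to 7450 against MΦs without 1 library, and the higher genes repeated at 1wk WD 1667 to 1810. Whether samples of the same number came from the same islet pools is not stated. Deviations of same-numbered samples correlated at -0.194 to 0.384 and exceeded 0.1 in 2 of 12 pairs, which does not settle it. The highest was between EC replicate 2 and MΦ replicate 2, both rich in acinar RNA. The fit with the replicate block called 2218 genes higher and 1122 lower. A fit without EC replicate 2 and MΦ replicate 2, chosen after seeing the data, called 2190 and 991. With array weights 1987 and 1156 genes were called.

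Of 236 differences of printed genes, 19, in 17 genes, lost a call without 1 library, and 31, in 27 genes, lost it under at least 1 other setting that kept the fold change of 2. These were 21 differences with β cell replicates 3 and 4 only (*Cacna1d*, *Cat*, *Cdh1*, *Cplx1*, *Ern1*, *Gabbr2*, *Gad2*, *Gcg*, *Glud1*, *Hk1*, *Hmox1*, *Ldha*, *Mki67*, *Qpct*, *Rfx3*, *Sec61b*, *Slc18a2*, *Tap1*), 11 with only the 2 groups compared (*Cdh5*, *Cplx1*, *Emr1*, *Gad2*, *Hk1*, *Hmox1*, *Ldha*, *Qpct*, *Rest*, *Stx1a*), 9 without EC replicate 2 and MΦ replicate 2, 8 with array weights (*Cacna1d*, *Cdh1*, *Cdh5*, *Gabbr2*, *Gcg*, *Krt18*, *Sec61b*, *Sst*), 5 with β cell replicates 1 and 2 only (*Cdh5*, *Gcg*, *Sel1l*, *Sst*, *Stx1a*), 5 after quantile normalization (*Cdh5*, *Emr1*, *Gad2*, *Glud1*, *Rbfox2*), 4 with a pseudocount of 20, and 1 to 3 with each of 5 other settings. A fold change of 4 ended 27. Another 12 differences, in 10 genes (*Adcyap1r1*, *Gad2*, *Hspa5*, *Igf1r*, *Pam*, *Pdgfra*, *Sel1l*, *Slc16a1*, *Stx1a*, *Vim*), were not called with all libraries but were under at least 1 setting other than leaving out 1 library, and 5, in 5 genes (*Gad2*, *Sel1l*, *Slc16a1*, *Stx1a*, *Vim*), without 1 library. The sign turned only for differences that were not called with all libraries. With β cell replicates 1 and 2 only, *Adcyap1r1* was -4.07 from ECs, which passed the test, and -1.73 from MΦs, *Pdgfra* -1.67 from ECs and -3.69 from MΦs, the latter past the test, *Chrm3* 0.99 and *Mki67* -0.70 from ECs, and *Slc25a12* 0.16 from MΦs (0.24 after quantile normalization). With replicates 3 and 4 only, *Gpd2* was -0.11 from ECs and -0.47 from MΦs, *Vim* 0.17 from ECs, and *Slc16a1* 0.19 and *Slc30a1* 0.13 from MΦs. Without 1 library, the difference from ECs ranged from -0.96 to 2.61 for *Adcyap1r1*, -0.42 to 0.43 for *Chrm3*, and -0.23 to 0.47 for *Mki67*, and that from MΦs from -0.19 to 0.29 for *Gpd2*, -0.50 to 3.31 for *Pdgfra*, and -0.12 to 0.08 for *Slc25a12*. The cause was not tested. Depth is unknown, so scores near 1 carry no detection limit.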
